A study of Mus musculus with 9 samples.

Results

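Exons whose length is a multiple of 3 bases can be included or left out of an mRNA without shifting the reading frame, so that their skipping removes a stretch of protein and leaves the rest as it was. The exons described here have such a length, above 27 bases, in mouse heart, and are called frame-keeping cassette exons by that rule. Not all of them are coding or cassette exons. Of 2417 matched to an annotation, 67.4% were wholly coding inner exons and 416 were first or last exons. All were chosen from a table of exonic parts, each a stretch of exon between neighbouring exon ends in the annotation. A part was taken if its length was above 27 bases and divisible by 3, if it touched no other part of its gene, if it was neither the first nor the last part, and if its gene was not Ttn and shared no part with another gene. Each library also had to hold at least 10 reads on it, and its mean percent spliced in (PSI, the share of transcripts that include a part, given as a fraction from 0 to 1) over all 9 libraries had to lie between 0.05 and 0.95. Of 480017 exonic parts, 136538 were isolated inner parts, 52900 of those had such a length, 28510 had the reads, and 2504 exons of 1753 genes met every condition. The mean over all 9 libraries chose the exons, the carriers included, so that the choice is not free of the difference between genotypes. In 2008 of the 2504 exons the means of all 3 genotypes lay within the bounds. In the other 496 at least 1 genotype mean lay outside them, in 236 the wild-type mean, and such exons entered through the other groups.

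The hearts came from mice aged 12 weeks in 3 groups of 3 libraries each: homozygous and heterozygous carriers of an Rbm20 allele made with CRISPR/Cas, c.1121_1122delAG, which lacks 2 bases and shifts the frame from codon 374 (p. Q374Rfs), and wild-type mice. The labels name neither the strain nor the sex, and give no treatment. Separate mice are not stated for the libraries of a group, and the p-values therefore cover the spread from library to library, which may be technical. All 9 libraries were made with a stranded kit and sequenced in pairs of reads.

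RBM20 is an RNA-binding protein of heart and skeletal muscle that binds UCUU motifs in introns beside its target exons and mostly represses their inclusion. Titin is its best known target, and losing the repression lengthens the titin spring. Many of its other targets serve the sarcomere, calcium handling or the link between membrane and cytoskeleton, and a large share of their regulated exons keep the reading frame.

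The labels and tissue were checked first. Rbm20 itself had between 51.8 and 66.0 CPM (counts scaled to library size) in homozygous, between 68.4 and 90.2 in heterozygous and between 104 and 132 in wild-type libraries, a log2 fold change of -0.98 in homozygous against wild-type hearts (edgeR, adjusted p = 0.00428) and of -0.48 in heterozygous against wild-type hearts (adjusted p = 1.00). Of 10 cardiomyocyte marker genes 9 were measured, 2 of them higher in homozygous hearts and 0 lower. Their sum was between 88142 and 99428 CPM in homozygous, between 70928 and 82298 in heterozygous and between 72667 and 83360 in wild-type libraries. The genes did not move alike between homozygous and wild-type hearts. The log2 fold change was 0.79 for Myl2 (edgeR, adjusted p = 0.0437), 0.017 for Myh6, -0.080 for Pln and -0.74 for Ryr2 (adjusted p = 0.0557). For the remaining measured genes it lay between 0.19 and 0.40. Of 5 atrial markers 4 were measured. Their sum reached 545 CPM in homozygous, 2062 in heterozygous and 176 in wild-type libraries. In homozygous libraries Nppa, a gene that stressed ventricles also express, made up 382 to 542 CPM of it and Myl7 at most 5.53 CPM, while heterozygous library 3 had 357 CPM of Myl7. Without heterozygous library 3 the counts of called exons were 7, 1 and 3 in the 3 comparisons that follow, in the order given there. Myl7 was at 0.0933 and 1.42 CPM in heterozygous libraries 1 and 2 and at 28.1, 3.25 and 5.88 CPM in wild-type libraries. The sample titles say heart and name no chamber, and the share of atrial tissue in each library was not tested. In RNA from tissue, fewer cells of a type and less RNA per cell cannot be told apart. The 3 homozygous libraries, heterozygous libraries 1 and 2 and wild-type library 1 have library numbers below 11000 and the other 3 numbers above it, so that number and genotype are partly confounded.

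Of the 2504 exons, 9 were called in homozygous against wild-type hearts, by the rule given with that comparison. Among them, 8 are wholly coding exons in the GENCODE M21 annotation, and their sequences are shown because they are the stretches of mRNA whose inclusion differed with genotype. They were read from M21 transcripts, matched by gene, length and the distances to the neighbouring parts. Each is given 5′ to 3′ on the transcript strand, with the exon in capitals and 15 bases of the exon on each side in lower case.
Ank3 part 116, 87 bases, GRCm38 chr10:70008778-70008864, plus strand: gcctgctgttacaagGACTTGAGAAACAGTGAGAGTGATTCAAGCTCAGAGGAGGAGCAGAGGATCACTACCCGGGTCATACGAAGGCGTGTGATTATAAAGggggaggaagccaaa
Ank3 part 117, 84 bases, GRCm38 chr10:70013972-70014055, plus strand: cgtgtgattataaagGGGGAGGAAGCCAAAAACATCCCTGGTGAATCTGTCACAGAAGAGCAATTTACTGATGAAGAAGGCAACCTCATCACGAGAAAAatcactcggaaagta
Ank3 part 118, 57 bases, GRCm38 chr10:70014190-70014246, plus strand: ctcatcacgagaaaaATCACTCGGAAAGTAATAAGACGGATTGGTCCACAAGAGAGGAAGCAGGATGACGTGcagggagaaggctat
Arhgap10 part 12, 66 bases, GRCm38 chr8:77382725-77382790, minus strand: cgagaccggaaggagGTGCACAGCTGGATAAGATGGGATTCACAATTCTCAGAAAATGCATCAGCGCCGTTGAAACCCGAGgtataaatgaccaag
Ttc17 part 10, 171 bases, GRCm38 chr2:94342627-94342797, minus strand: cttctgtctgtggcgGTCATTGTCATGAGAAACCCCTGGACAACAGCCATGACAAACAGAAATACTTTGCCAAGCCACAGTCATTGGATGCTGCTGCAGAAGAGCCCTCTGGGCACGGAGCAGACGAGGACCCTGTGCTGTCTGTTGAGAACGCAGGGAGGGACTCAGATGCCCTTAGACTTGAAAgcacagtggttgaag
Pnpla7 part 36, 132 bases, GRCm38 chr2:25015150-25015281, plus strand: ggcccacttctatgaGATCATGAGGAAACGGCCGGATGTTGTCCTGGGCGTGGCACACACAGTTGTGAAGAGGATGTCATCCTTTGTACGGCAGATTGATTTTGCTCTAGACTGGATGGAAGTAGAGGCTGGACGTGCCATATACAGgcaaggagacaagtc
Ppa2 part 8, 54 bases, GRCm38 chr3:133326648-133326701, plus strand: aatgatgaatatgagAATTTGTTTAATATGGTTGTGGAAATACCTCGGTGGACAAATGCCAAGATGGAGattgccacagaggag
Gk part 25, 84 bases, GRCm38 chrX:85749612-85749695, minus strand: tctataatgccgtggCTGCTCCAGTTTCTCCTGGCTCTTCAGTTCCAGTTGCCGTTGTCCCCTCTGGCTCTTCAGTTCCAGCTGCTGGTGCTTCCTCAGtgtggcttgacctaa
In the Ank3 transcript the last 15 bases of part 116 are the flank before part 117, and the last 15 of part 117 are the flank before part 118, so that the 3 exons are joined to each other in that order. TCTT, searched on the transcript strand only, was found in the exon of Gk, with 2 copies, and in none of the other 7 printed exons. Among all 2417 exons matched to M21, 40.0% hold a TCTT within the exon. Introns, where RBM20 is known to bind, were not analysed here.

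The 2504 exons had a median length of 108 bases, with quartiles of 72 and 168 bases and a range of 30 to 5946 bases. Their median depth was 163 inclusion plus exclusion reads per library, and 1289 exons had at least 100 reads in their lowest library, 907 had between 20 and 99 and 308 had fewer than 20. The median spread was smaller at higher depth. Over exons with at least 100 reads the median SD of PSI among the 3 libraries of a group was 0.0313 in homozygous, 0.0303 in heterozygous and 0.0269 in wild-type hearts. Under 20 reads it was 0.109, 0.0961 and 0.0785 in the same order. Most genes gave a single exon, 1360 of 1753, and 393 genes gave 2 or more. Exons of 1 gene are not independent, and 97 of the 2504 share the same exclusion reads with another exon of their gene.

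At the edges of the rule, Gmeb2 part 19 had a mean PSI of 0.05005 just inside and Ttc17 part 7 one of 0.04990 just outside the lower bound, and Adamts9 part 44 had 0.94995 just inside and Slc1a4 part 4 0.95001 just outside the upper bound. For length, 31 isolated exons of 30 bases lay just above the bound and 21 of 27 bases just below it.

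Matched to the M21 annotation, 1628 of 2417 exons (67.4%) were wholly coding inner exons, 138 were coding in part, 119 lay in untranslated sequence, 116 belonged to non-coding transcripts, and 416 were first or last exons. For 1882 exons (77.9%) M21 also lists a transcript that skips them. The median wild-type PSI was 0.712 for wholly coding exons, 0.154 for first exons, 0.144 for last exons, 0.215 for untranslated exons, 0.229 for exons coding in part and 0.254 for exons of non-coding transcripts, so that the wholly coding class stood above the others. A frame can be kept only in the coding class, and the 2961 frame-shifting exons chosen by the same rule held 45.2% coding exons among those matched.

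The comparison of homozygous with wild-type hearts asked which of these exons changed when both Rbm20 alleles carried the frameshift. PSI was fitted with limma over all 55648 tested exonic parts of the table, and calls needed both an adjusted p (Benjamini-Hochberg, over all tested parts) under 0.05 and a change in PSI of 0.1 or more. Of the 2504 exons, 9 were called (0.359%), with 8 higher and 1 lower in homozygous hearts, in 7 genes. Over all tested parts 0.413% were called (0.376% higher and 0.0377% lower), and outside Ttn, which the rule leaves out, 0.148% (0.11% higher and 0.038% lower). The share among frame-keeping exons is near the share with Ttn and above the share outside Ttn. That difference was not tested, and the sets also differ in their bounds on mean PSI. Of the 9, the 3 Ank3 exons and Gk part 25 had a wild-type mean under 0.05, and Ppa2 part 8 and Pnpla7 part 36 a homozygous mean above 0.95, so that they met the rule only through the other groups; their count is a description. Arhgap10 part 12, Ttc17 part 10 and Scube2 part 9 had all 3 genotype means within the bounds. The count was 17 without homozygous library 2, of which 5 were exons of Lsr, described further on, and 17 without the variance trend. It fell to 6 when the Ttn parts were left out of the fit and with a library number term. It was also 6 without the filter on constant parts, with the 2 groups alone and without wild-type library 3. For comparison, 4 of 2961 frame-shifting exons (0.135%) and 4 of 184 isolated exons of 3 to 27 bases (2.17%) were called. The median PSI difference over the 2504 exons was 0.00329, against 0.00346 over all tested parts.

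**Figure D1:**
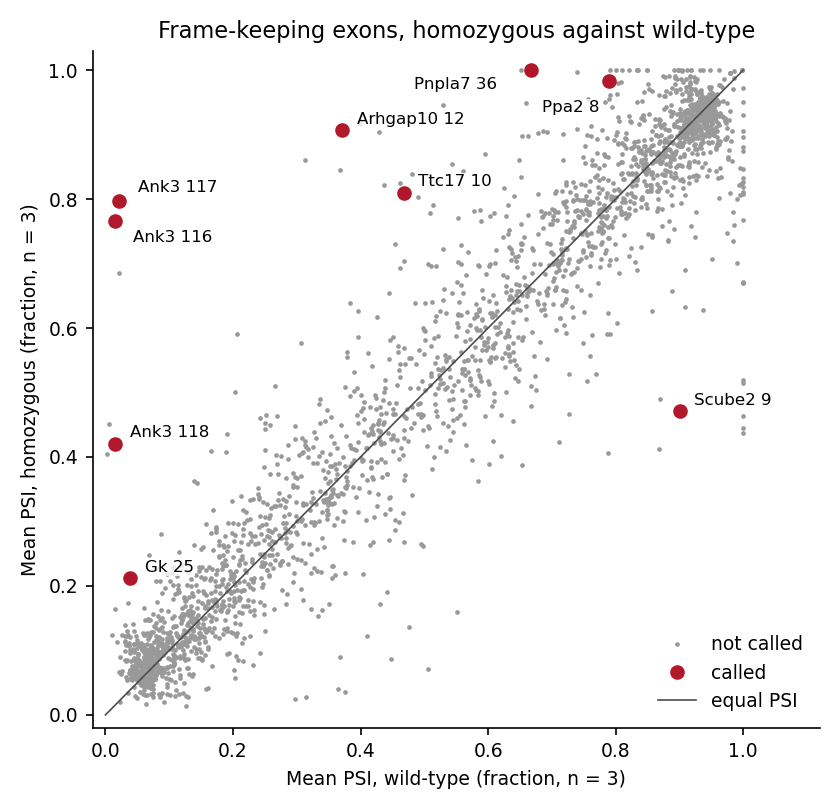
Mean PSI as a fraction in homozygous hearts (vertical axis) against wild-type hearts (horizontal axis) for the 2504 frame-keeping exons, each point 1 exon and a mean of 3 libraries. The 9 called exons are red and named; 8 lie above the line of equal PSI and Scube2 part 9 lies below it, while most exons lie close to the line.

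Groups that do not overlap were far more common than calls. In 396 exons (15.8%) every homozygous library lay outside the wild-type range, 237 above it and 159 below it, against 12.4% over all tested parts (8.12% higher and 4.23% lower). At an unadjusted p under 0.05 there were 248 exons (9.90%), against 7.69% over all parts. Differences of at least 0.1 in size were seen in 404 exons (16.1%), against 9.99% of all parts, and in a like share of the other sets with the same bounds on mean PSI, 17.0% of frame-shifting exons and 16.3% of exons of 3 to 27 bases. Groups did not overlap in 12.6% and 20.7% of those sets. These shares are not particular to frame-keeping exons.

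Ank3 gave the strongest change. It encodes ankyrin-G, an adaptor that anchors membrane proteins such as the cardiac sodium channel to the spectrin cytoskeleton. Part 117 (84 bases, GRCm39 chr10:69849802-69849885) had PSI values of 0.835, 0.739 and 0.819 in the homozygous libraries, 0.150, 0.169 and 0.182 in the heterozygous libraries, and 0.0241, 0.0284 and 0.0128 in the wild-type libraries. The exon was in most transcripts of homozygous hearts, in a minority of heterozygous ones and nearly absent in wild-type hearts, and no library of 1 group reached another group. The means were 0.798 ± 0.0513, 0.167 ± 0.0163 and 0.0218 ± 0.00807 (SD, n = 3 each), and the difference between homozygous and wild-type hearts was 0.776, with a 95% interval of 0.693 to 0.859 (limma, adjusted p = 1.33e-05).

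Part 116 of Ank3 (87 bases, GRCm39 chr10:69844608-69844694) had a similar pattern, with 0.766 ± 0.0571 in homozygous, 0.141 ± 0.0173 in heterozygous and 0.0144 ± 0.00316 in wild-type hearts, a difference of 0.751 (0.669 to 0.834, adjusted p = 1.50e-05). Its exclusion reads are those of part 117, library by library: 69, 93 and 64 reads in homozygous, 261, 311 and 281 in heterozygous and 387, 305 and 442 in wild-type libraries. Reads that skip one of these exons thus skip the other as well, and the pair counts as 1 skipping event, which leaves 8 distinct sets of exclusion reads among the 9 called exons. Inclusion reads moved the other way, with 546, 413 and 455 on part 117 in homozygous libraries against 15, 14 and 9 in wild-type libraries.

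Part 118 of Ank3 (57 bases, GRCm39 chr10:69850020-69850076) rose by less. It had 0.432, 0.405 and 0.425 in homozygous, 0.0914, 0.0766 and 0.104 in heterozygous and 0.0145, 0.0163 and 0.0160 in wild-type libraries, a difference of 0.405 (0.362 to 0.448, adjusted p = 1.33e-05). Its exclusion reads differ from those of its neighbours, with 262, 231 and 204 in homozygous libraries against 393, 305 and 443 in wild-type libraries. In homozygous hearts part 118 was therefore left out of many transcripts that held parts 116 and 117.

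The 3 exons lie in a longer run that moved together. Part 115, which has 51 bases and touches part 114 and so is outside the rule, averaged 0.684 in homozygous, 0.131 in heterozygous and 0.0332 in wild-type hearts (difference 0.651, adjusted p = 1.82e-05). Part 114, with 3 bases, averaged 0.234, 0.0706 and 0.0393 in the same order (adjusted p = 0.224). On the other side the change stopped: part 119 averaged 0.877 in homozygous, 0.886 in heterozygous and 0.869 in wild-type hearts. Parts 116 to 118 add up to 228 bases and parts 114 to 118 to 282 bases, so that the frame is kept whichever of these exons are joined. M21 lists 19 Ank3 transcripts that skip each of the 3 exons.

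**Figure D2:**
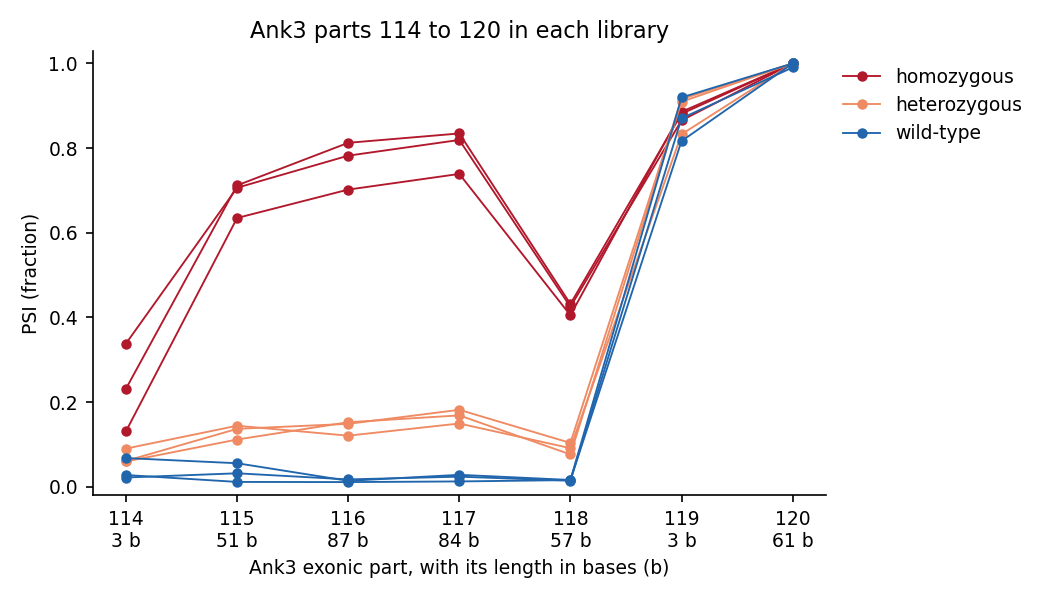
PSI as a fraction (vertical axis) of Ank3 exonic parts 114 to 120 in order along the gene, with each length in bases (b) on the horizontal axis and 1 line for each of the 9 libraries. The homozygous lines stand well above the heterozygous and wild-type lines at parts 115 to 118, and the 3 groups meet again at part 119.

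The other Ank3 exons met no call. Part 56 (63 bases) averaged 0.385 in homozygous, 0.270 in heterozygous and 0.249 in wild-type hearts (difference 0.136, adjusted p = 0.549), with no overlap between homozygous and wild-type libraries, and part 47 (99 bases) averaged 0.157, 0.181 and 0.135 in the same order. Expression of Ank3 as a whole did not pass the test, at a log2 fold change of 0.05 between homozygous and wild-type hearts (edgeR, adjusted p = 0.902). The sign of that small change turned in 4 of the alternatives listed in the closing section.

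Arhgap10 encodes a GTPase-activating protein that regulates the actin cytoskeleton. Its part 12 (66 bases, GRCm39 chr8:78109354-78109419) had 0.926, 0.907 and 0.888 in homozygous, 0.663, 0.679 and 0.706 in heterozygous and 0.430, 0.338 and 0.347 in wild-type libraries. The 3 groups are separate, with heterozygous hearts in the middle. The difference between homozygous and wild-type hearts was 0.535 (0.434 to 0.637, adjusted p = 0.000458), and at least 512 reads stood behind each value. Part 11 next to it, also a frame-keeping exon (75 bases), averaged 0.946 in homozygous, 0.947 in heterozygous and 0.932 in wild-type hearts (adjusted p = 0.814), and part 4 averaged 0.727, 0.753 and 0.758 in the same order, so that 1 of the 3 frame-keeping exons of this gene was called.

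Ppa2 encodes the mitochondrial inorganic pyrophosphatase. Its part 8 (54 bases, GRCm39 chr3:133032409-133032462) had 0.995, 0.971 and 0.985 in homozygous, 0.981, 0.982 and 0.970 in heterozygous and 0.774, 0.798 and 0.795 in wild-type libraries. Carriers of either kind hardly skipped the exon, and no carrier library reached the wild-type range. The difference between homozygous and wild-type hearts was 0.195 (0.153 to 0.237, adjusted p = 0.00121). Exclusion reads were 6, 30 and 16 in homozygous and 22, 22 and 36 in heterozygous libraries, against 233, 239 and 229 in wild-type libraries. The next exon, part 9 (120 bases), averaged 0.979 in homozygous, 0.961 in heterozygous and 0.892 in wild-type hearts and was not called (difference 0.0863, adjusted p = 0.129). M21 lists no transcript that skips part 8.

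Pnpla7 encodes a lysophospholipase of the patatin-like family. Its part 36 (132 bases, GRCm39 chr2:24905162-24905293) had a PSI of 1 in each homozygous library, 0.874, 0.968 and 0.944 in heterozygous and 0.626, 0.639 and 0.736 in wild-type libraries. No skipping read was seen in homozygous hearts, at 123, 102 and 105 inclusion reads. A count of 3 exclusion reads would have given 0.956, 0.947 and 0.949, so that skipping in homozygous hearts is only bounded from above at this depth, for counting error alone. Exclusion reads were 9, 2 and 4 in heterozygous and 31, 29 and 22 in wild-type libraries. The difference between homozygous and wild-type hearts was 0.333 (0.248 to 0.419, adjusted p = 0.00446), and M21 lists no transcript that skips the exon. The homozygous SD of 0, at the upper limit of PSI, enters the spread behind that interval. The call was lost in 2 of 23 alternatives, without the filter on constant parts and with the 2 groups alone.

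Ttc17 encodes a tetratricopeptide repeat protein. Its part 10 (171 bases, GRCm39 chr2:94172972-94173142) had 0.823, 0.771 and 0.836 in homozygous, 0.685, 0.626 and 0.646 in heterozygous and 0.502, 0.425 and 0.476 in wild-type libraries, again in 3 separate steps. The difference between homozygous and wild-type hearts was 0.343 (0.239 to 0.446, adjusted p = 0.0136). The call was lost in 7 of 23 alternatives, among them the fits without homozygous library 1, homozygous library 3 or wild-type library 3. It was also lost when the Ttn parts were left out of the fit and with a library number term.

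Gk encodes glycerol kinase, which makes glycerol 3-phosphate. Its part 25 (84 bases, GRCm39 chrX:84793218-84793301) was a minor exon, with 0.227, 0.211 and 0.199 in homozygous, 0.161, 0.0496 and 0.0941 in heterozygous and 0.0377, 0.0387 and 0.0394 in wild-type libraries. Every homozygous library lay above every other library. The difference between homozygous and wild-type hearts was 0.173 (0.113 to 0.234, adjusted p = 0.0344), at 78 reads in the lowest library. Of the other alternatives 14 of 23 ended the call, among them the fits without any 1 of the homozygous libraries, heterozygous library 3 or any 1 of the wild-type libraries. Leaving the Ttn parts out of the fit and adding a library number term each ended it too.

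Scube2, which encodes a secreted protein that helps release Hedgehog ligands, held the only called exon with a lower PSI in homozygous hearts. Part 9 (321 bases, GRCm39 chr7:109407118-109407438) had 0.589, 0.398 and 0.427 in homozygous, 0.916, 0.870 and 0.842 in heterozygous and 0.964, 0.828 and 0.910 in wild-type libraries, a difference of -0.429 (-0.567 to -0.292, adjusted p = 0.0206). Its inclusion reads hardly differed, at 232, 228 and 250 in homozygous and 251, 244 and 287 in wild-type libraries. The exclusion reads did, at 51, 109 and 106 in homozygous and 3, 16 and 9 in wild-type libraries. Part 10, which lies upstream of it on the minus strand, held 113, 258 and 238 inclusion reads in homozygous, 17, 26 and 35 in heterozygous and 15, 26 and 31 in wild-type libraries. M21 lists part 9 only as a first exon, which is why its sequence is not shown. Its exclusion reads therefore need not be skipping of a cassette exon, and their origin was not tested. The call was lost in 14 of 23 alternatives, among them the fits without homozygous library 2 or 3, without any 1 of the heterozygous libraries, and without wild-type library 1 or 3. Without the Ttn parts and with a library number term it was lost as well.

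**Figure D3:**
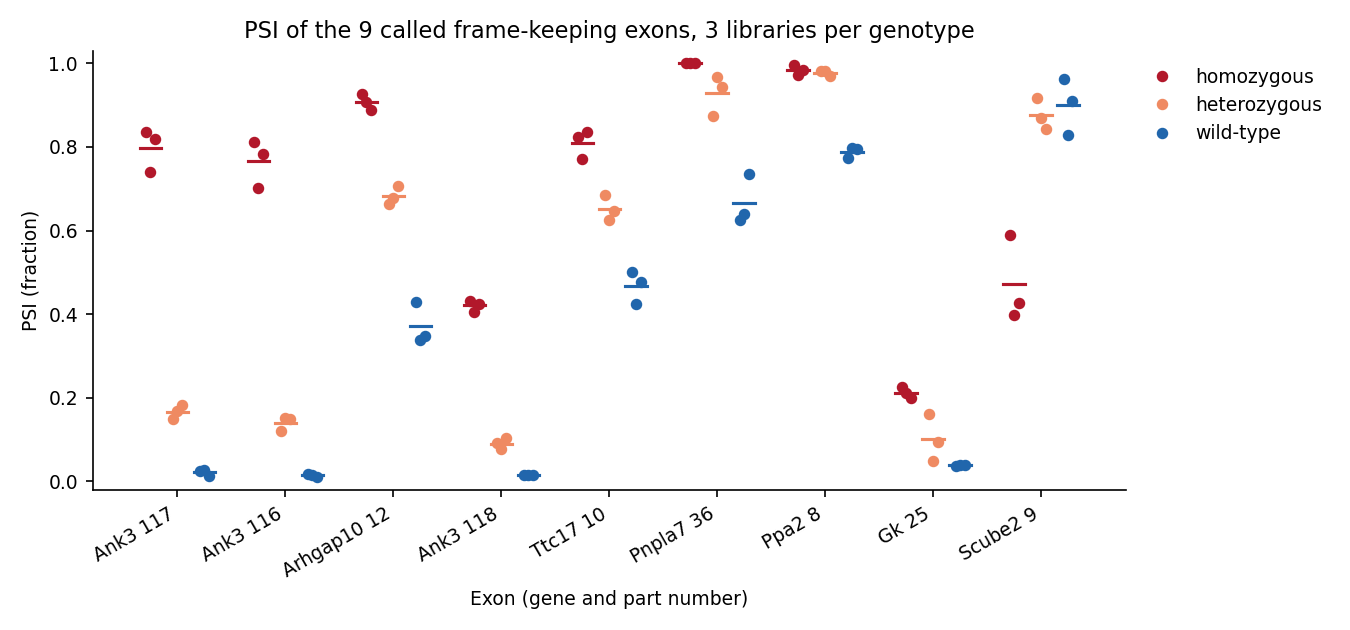
PSI as a fraction (vertical axis) of the 9 called exons (horizontal axis, gene and part number), with 3 homozygous, 3 heterozygous and 3 wild-type libraries as points and a bar at each group mean. Homozygous points lie above wild-type points in 8 exons and below them in Scube2 part 9, and heterozygous points lie close to wild-type in Ank3 and close to homozygous in Ppa2.

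Hearts with 1 edited allele were then set against wild-type hearts. A single exon was called (0.0399%), against 0.0755% of all tested parts (0.0737% higher and 0.0018% lower): Ppa2 part 8, higher by 0.188 (0.146 to 0.230, adjusted p = 0.00891). Groups did not overlap in 234 exons (9.35%; 123 higher and 111 lower), against 8.47% of all parts (4.17% higher and 4.31% lower), and 110 exons (4.39%) had an unadjusted p under 0.05, against 4.04%. The 3 Ank3 exons were higher in every heterozygous library than in every wild-type library, by 0.126 to 0.145 for parts 116 and 117 and by 0.0750 for part 118, yet were not called (limma, adjusted p = 0.924, 0.664 and 0.669). The logit scale and the edgeR test on reads both called parts 116 and 117 and did not call Ppa2. The Ppa2 call was also lost without heterozygous library 1, and without wild-type library 2 the count was 2.

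Heterozygous hearts took different places between the other groups from exon to exon. On a scale where the wild-type mean is 0% and the homozygous mean 100%, they stood at 96.8% for Ppa2 and at 78.6% for Pnpla7. Arhgap10 stood at 58.1%, Ttc17 at 54.0% and Gk at 36.4%. The Ank3 exons stood at 16.8% to 18.7% and Scube2 at 5.63%. These are group means, and the differences between exons on this scale were not tested.

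Between homozygous and heterozygous hearts 4 exons were called (0.160%), against 0.264% of all tested parts (0.241% higher and 0.0234% lower). Groups did not overlap in 289 exons (11.5%; 171 higher and 118 lower), against 11.2% of all parts (7.61% higher and 3.6% lower), and 170 exons (6.79%) had an unadjusted p under 0.05, against 6.93%. The called exons were Ank3 parts 117, 116 and 118, higher by 0.631, 0.625 and 0.330 (limma, adjusted p = 5.41e-05, 5.53e-05 and 5.21e-05), and Scube2 part 9, with a difference of -0.405 (adjusted p = 0.0432). The Scube2 call was lost in 15 of 23 alternatives, with adjusted p-values up to 0.514, among them the fits without homozygous library 2 or 3, any 1 of the heterozygous libraries or any 1 of the wild-type libraries. Leaving out the Ttn parts or adding a library number term lost the Scube2 call as well. Pnpla7 and Ppa2 differed by 0.0713 (-0.0141 to 0.157) and 0.00628 (-0.0357 to 0.0483), without a call. Without homozygous library 2 the count was 9, and with only the libraries numbered below 11000, 1 wild-type library among them, it was 0. The homozygous libraries enter 2 of the 3 comparisons, as do the heterozygous and the wild-type ones, so the comparisons are not independent of each other.

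In homozygous against wild-type hearts 11 further exons had the smallest p-values without being called. Scmh1 part 13 (225 bases), in a Polycomb group gene, came closest, with 0.400, 0.527 and 0.576 in homozygous, 0.337, 0.407 and 0.393 in heterozygous and 0.198, 0.194 and 0.215 in wild-type libraries (difference 0.299, limma, adjusted p = 0.0599). Exons of a pair of calcium channel genes were also among them. Cacna2d1 part 27 (57 bases), in the gene of an auxiliary subunit of voltage-gated calcium channels, had 0.321, 0.353 and 0.282 in homozygous, 0.218, 0.215 and 0.220 in heterozygous and 0.181, 0.162 and 0.162 in wild-type libraries (difference 0.150, adjusted p = 0.0713). Cacna1g part 12 (144 bases), in the gene of a pore-forming T-type channel subunit, averaged 0.221 in homozygous, 0.0832 in heterozygous and 0.104 in wild-type hearts (difference 0.117, adjusted p = 0.137). None of these 3 had homozygous and wild-type libraries that overlapped.

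Of the other 8, Tbl1xr1 part 7, Slc4a7 part 6, Rubcn part 23, Myh7 part 41 and Sorbs2 part 88 were higher in homozygous hearts, by 0.0584 to 0.244, and Alpk3 part 2, Morrbid part 63 and Rai14 part 8 were lower, with differences of -0.0897 to -0.278. Their adjusted p-values lay between 0.101 and 0.198. Rubcn, a brake on autophagy, averaged 0.410 in homozygous, 0.223 in heterozygous and 0.166 in wild-type hearts. Alpk3, a kinase of the sarcomere, averaged 0.890, 0.941 and 0.9802 in the same order. Morrbid, a long non-coding RNA, averaged 0.0902, 0.0478 and 0.368, at as few as 10 reads, and heterozygous hearts were as low as homozygous ones.

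**Figure D4:**
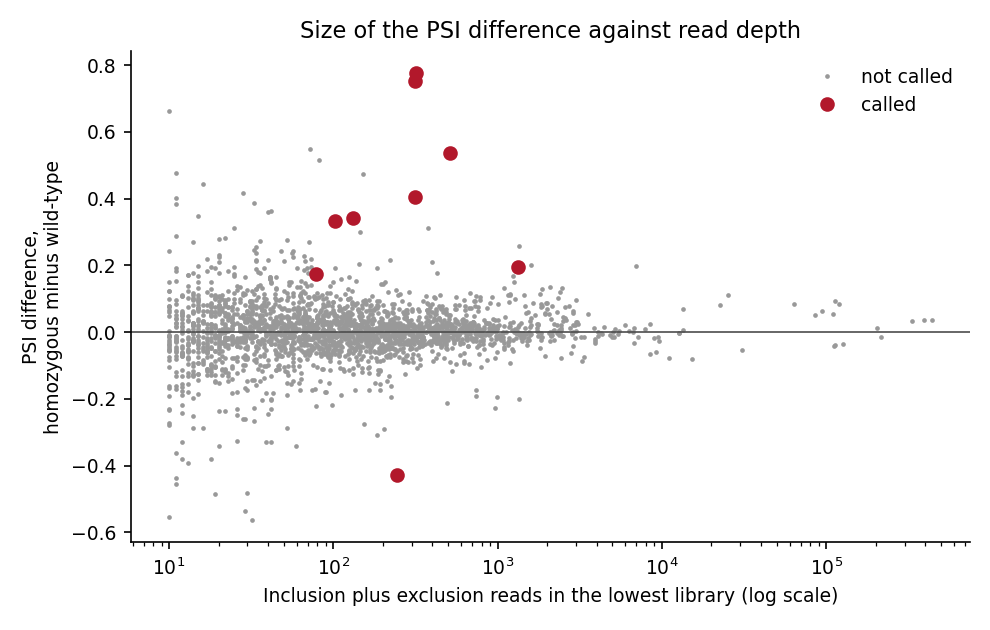
PSI difference, homozygous minus wild-type (vertical axis), against the inclusion plus exclusion reads of the lowest library on a log scale (horizontal axis) for the 2504 exons. The differences spread out at low depth; 8 of the 9 called exons (red) have at least 100 reads in every library, and the called exon below that is Gk part 25 with 78.

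Genes known as RBM20 targets were looked at as a list of 33 genes, of which 20 held 100 of these exons. Ank3 was put on that list with its result in these data known, so its 3 calls there support nothing about the list. No other exon of the list was called. In 30 of the 100 exons homozygous and wild-type libraries did not overlap, 25 higher and 5 lower. Without the Ank3 exons this was 26 of 95 (27.4%), 22.1% higher and 5.26% lower, and without the Myh7 exons as well, whose values are uncertain, it was 21 of 86 (24.4%), 18.6% higher and 5.81% lower. Over the 2504 exons 9.46% were higher and 6.35% lower in this way, and over all tested parts 8.12% and 4.23%. The median difference over all 100 exons of the list, those of Ank3 and Myh7 included, was 0.0146, against 0.00346 over all tested parts. The whole list was chosen with earlier results of these data known, so the shares without Ank3 and Myh7 are also only a description. Exons of 1 gene share transcripts and are not independent.

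In Mlip, a gene of a muscle protein that binds lamin, a run of 4 exons had higher values in homozygous hearts. Part 18 (72 bases) had 0.450, 0.403 and 0.430 in homozygous, 0.340, 0.348 and 0.372 in heterozygous and 0.283, 0.302 and 0.305 in wild-type libraries (difference 0.131, limma, adjusted p = 0.312). Parts 15, 16 and 17 differed by 0.112, 0.116 and 0.149, each without overlap between homozygous and wild-type libraries and with adjusted p-values of 0.532, 0.395 and 0.362. Heterozygous means lay between the other groups in all 4 parts. Parts 23 and 24 of the gene differed by -0.00261 and -0.0169.

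The CaM kinase II genes encode calcium-dependent kinases whose linker exons are spliced differently in heart and brain. Camk2g part 22 (33 bases) had 0.292, 0.176 and 0.191 in homozygous, 0.352, 0.323 and 0.378 in heterozygous and 0.384, 0.362 and 0.382 in wild-type libraries (difference -0.156, limma, adjusted p = 0.297). Camk2b, which is not on the target list, was chosen after its values were seen. Its part 15 (129 bases) averaged 0.363 in homozygous, 0.4999 in heterozygous and 0.584 in wild-type hearts (difference -0.221, adjusted p = 0.225). Parts 16 (129 bases) and 24 (75 bases) of Camk2b differed by -0.218 and -0.103 (adjusted p = 0.421 and 0.564). These 4 exons had lower values in every homozygous library than in every wild-type library, which held for 4.23% of all tested parts. As Camk2b was picked by its values and its exons share transcripts, the count of 4 is only a description. The other Camk2b exons did not separate: part 17 had 0.400, 0.268 and 0.427 in homozygous and 0.381, 0.428 and 0.596 in wild-type libraries, and part 19 averaged 0.841 in homozygous and 0.825 in wild-type hearts. None of the 6 exons was called.

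The remaining targets reported here showed smaller values, none called. For each target gene the exon with the smallest p in homozygous against wild-type hearts was taken. These exons were thus picked by the comparison they show and do not stand for the gene's other exons. Lrrfip1 part 29 differed by 0.0967 (0.0146 to 0.179) and Dtna part 28, in the gene of a dystrophin partner, by 0.105 (-0.0190 to 0.229). Pdlim5 part 14 differed by -0.0877 (-0.230 to 0.0544), Lmo7 part 41 by -0.0880 (-0.198 to 0.0219) and Trdn part 33, in the gene of triadin of the calcium release complex, by -0.0461 (-0.125 to 0.0333). Differences of Cacna1c part 41, Ktn1 part 57, Ldb3 part 11, Fnbp1 part 18, Pdlim3 part 9 and Sh3kbp1 part 32 were under 0.05 in size. Rtn4 part 7 differed by 0.0555, Dst part 18 by 0.0637 and Spen part 10 by -0.0533. For Cacna1c, the gene of the L-type calcium channel pore, the interval was -0.0910 to 0.123, and for Ldb3, a Z-disc gene, -0.0953 to 0.0733.

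**Figure D5:**
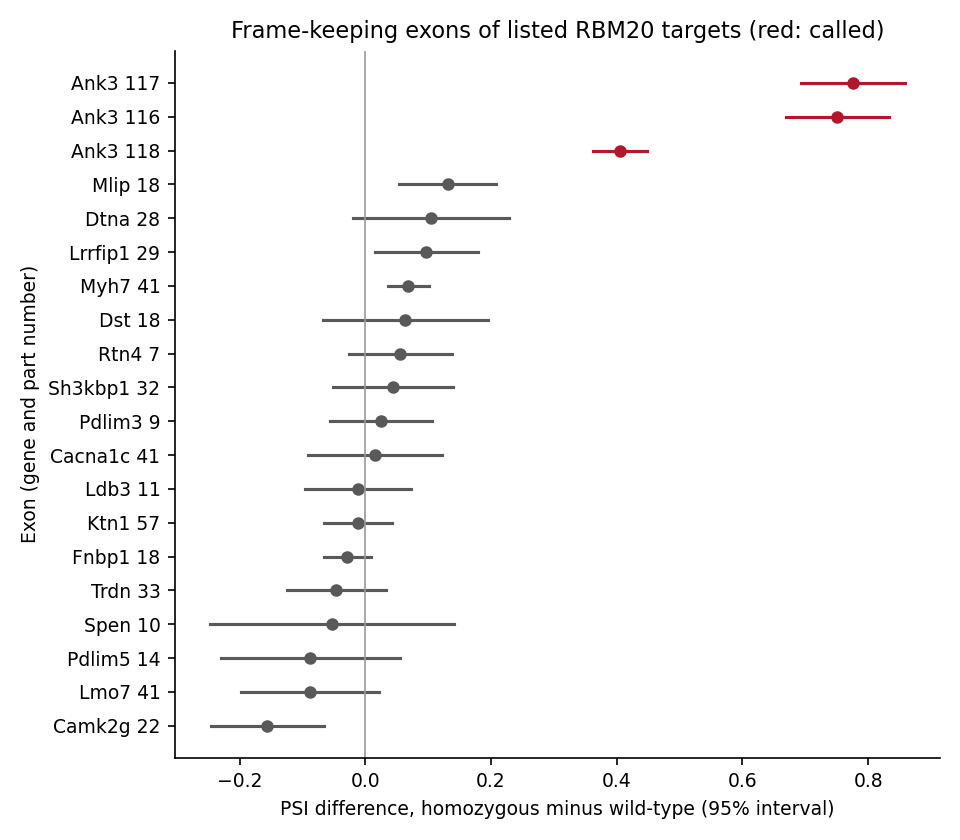
PSI difference, homozygous minus wild-type (horizontal axis), with its 95% interval from limma for 1 exon each of the RBM20 target genes reported here and all 3 called Ank3 exons (vertical axis, gene and part number). Each exon shown for a gene is the one with its smallest p in this same comparison, so it does not stand for the gene's other exons. The Ank3 exons (red) lie between 0.405 and 0.776, and the other exons lie between -0.156 and 0.131.

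In Myh7, which encodes the slow beta-myosin heavy chain, all 9 exons had higher means in homozygous than in wild-type hearts, by 0.0510 to 0.111, and none was called. Part 41 (93 bases) had 0.116, 0.108 and 0.0755 in homozygous, 0.0272, 0.0310 and 0.0221 in heterozygous and 0.0225, 0.0211 and 0.04999 in wild-type libraries (difference 0.0686, limma, adjusted p = 0.173). Myh7 lies beside the near-identical Myh6 and is overlapped by an antisense RNA, and the sources used here do not say how shared reads were counted or whether strand was used, so these values are uncertain.

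Grouped by function, 4 of the 9 called exons stood on any of the lists. At the share of all tested parts, 0.413% called, lists of this size would hold less than 1 call, so that a list without one says little. The list of cell adhesion and cytoskeleton genes had 136 exons in 50 genes and 4 calls (2.94%), those of Ank3 and Arhgap10. The list of calcium handling and ion channels had 44 exons in 15 genes and 3 calls (6.82%), all in Ank3, which stands on both lists and was put there with its result known. The 78 sarcomere and Z-disc exons of 16 genes had 0 calls by limma, and their median difference was 0.0158. At an unadjusted p under 0.05 there were 12 (15.4%, against 7.69% of all tested parts). Of these 12, 5 were exons of Myh7, whose values are uncertain, and 4 were exons of Mlip, so that the share rests mostly on these genes. Membrane traffic (40 exons), splicing regulators (24), transcription and chromatin (28), kinases and phosphatases (29) and insulin and energy metabolism (31) had 0 calls by limma and 0, 1, 3, 4 and 0 exons at an unadjusted p under 0.05. Yap1 part 7 (48 bases), in the gene of a co-activator of the Hippo pathway, was among these and averaged 0.555 in homozygous, 0.471 in heterozygous and 0.379 in wild-type hearts (difference 0.176, adjusted p = 0.270).

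Exons of Epb41 had differences of both signs without a call. In Epb41, which encodes the membrane skeleton protein 4.1R and stands on the adhesion and cytoskeleton list, parts 21 (42 bases) and 22 (57 bases) averaged 0.124 and 0.128 in homozygous, 0.0919 and 0.0863 in heterozygous and 0.0618 and 0.0742 in wild-type hearts. Part 20 (63 bases) averaged 0.617 in homozygous, 0.730 in heterozygous and 0.733 in wild-type hearts. None of the 3 was called (limma, adjusted p = 0.347, 0.343 and 0.694), and in each the homozygous and wild-type libraries did not overlap. Epb41l3 part 40 (66 bases), in a related gene, averaged 0.518, 0.714 and 0.755 in homozygous, heterozygous and wild-type hearts (difference -0.237, adjusted p = 0.358). Both genes were picked with their values in view.

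Several genes with many exons gave no calls by limma, which at 0.413% of all tested parts says nothing about these genes. Abi3bp, an extracellular matrix gene, held 30 exons, whose differences ran between -0.155 and 0.169, with 1 exon without overlap (against 12.4% of all tested parts) and 0 at an unadjusted p under 0.05 (against 7.69%). Tnxb, the gene of a tenascin of the matrix, held 15, between -0.0269 and 0.0944, and Lrrfip2 held 14, between -0.0104 and 0.0477.

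By length, 2 calls fell among 397 exons under 60 bases, 4 among 972 exons of 60 to under 120 bases, 2 among 910 exons of 120 to under 300 bases, and 1 among 225 longer exons, against 0.413% of all tested parts. The share of exons whose homozygous and wild-type libraries did not overlap was 18.1%, 14.6%, 15.5% and 18.2% in that order, against 12.4% of all tested parts. By annotated class it was 15.3% for wholly coding exons, 17.1% for first exons and 22.0% for last exons, and the median difference was 0.00119 for wholly coding exons, 0.00713 for first exons and 0.0266 for last exons.

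Some exons varied widely among libraries of 1 genotype. In 136 exons of 96 genes the 3 libraries of a genotype spanned at least 0.5 of the PSI scale, and none of them was called. Of these exons 45 had fewer than 20 reads in the lowest library, and 45 had 100 or more. Exons of 1 gene often swung together, and the genes named next were chosen after their values were seen. In Lsr, which encodes a lipoprotein receptor, parts 7, 8, 9, 13 and 14 had values of 0.138 to 0.3497 in homozygous libraries 1 and 3 and of 1 in homozygous library 2, and all wild-type libraries were at 1. For part 14 the difference was -0.563 (limma, adjusted p = 0.532). Without homozygous library 2 all 5 were called, at 10 to 32 reads in the lowest library. The other Lsr exon, part 12, did not follow library 2: it had 0.0583, 0.0616 and 0.0922 in homozygous, 0.340, 0.161 and 0.176 in heterozygous and 0.391, 0.363 and 0.765 in wild-type libraries (difference -0.436, adjusted p = 0.226), at 11 reads in the lowest library.

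In Acad10, which encodes an acyl-CoA dehydrogenase, 5 of the 7 exons, parts 5, 8, 12, 21 and 25, separated by library number. Part 5 (144 bases) had 0.865, 0.930 and 0.915 in homozygous, 0.812, 0.953 and 0.358 in heterozygous and 0.784, 0.308 and 0.194 in wild-type libraries (difference 0.475, limma, adjusted p = 0.569). The 6 libraries with numbers below 11000 were all high and the 3 others all low, within wild-type and heterozygous hearts too. Parts 4 and 26 did not split this way: part 4 was lowest in homozygous library 2, at 0.113, which is numbered below 11000, and part 26 had 0.652 in wild-type library 3 and 0.633 in heterozygous library 1. Part 12 had the split of part 5, with 0.896, 0.874 and 0.976 in homozygous, 0.873, 1 and 0.337 in heterozygous and 0.756, 0.279 and 0.163 in wild-type libraries. In Dhx8, an RNA helicase gene, 8 exons stood between 0.922 and 0.956 in heterozygous library 3, between 0.190 and 0.325 in heterozygous library 1 and at most 0.137 in the other libraries. The 7 exons of Nbr1, an autophagy receptor gene, were likewise highest in heterozygous library 3, between 0.959 and 0.992. They stood between 0.579 and 0.675 in heterozygous library 1 and between 0.0852 and 0.392 in the other libraries. Both genes lie near each other on chromosome 11, with the Nbr1 exons ending at 101464003 and those of Dhx8 starting at 101628956 (GRCm39). The pattern may thus be a single local one, which was not tested.

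Expression of the 1753 genes that hold these exons was measured from the same counts. The rule required reads in every library, so that these genes were chosen in part on their level and the share of genes called is not free of the rule. Inclusion counts were summed per gene and tested with edgeR. Between homozygous and wild-type hearts 120 of the 1753 genes (6.85%) were called, 44 higher and 76 lower, against 4.39% of all 22049 genes tested, and their median log2 fold change was -0.07. The count moved in both directions with the processing: it was 277 with DESeq2, 271 without the low-count filter and 26 with a library number term. It was 56 without wild-type library 1, 30 without wild-type library 2, 28 without wild-type library 3, 32 without homozygous library 2 and 40 without homozygous library 3. Between heterozygous and wild-type hearts 0 genes were called by edgeR, with 712 of all genes at an unadjusted p under 0.05 and 1 of the 1753 called by DESeq2.

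Of the 7 genes with a called exon, 4 also passed the expression test, against 4.39% of all 22049 genes tested. Their adjusted p-values (edgeR) lay between 0.0204 and 0.0446, near the threshold of 0.05. Not all of these calls were kept under the alternatives. When a library was left out, log2 fold changes between homozygous and wild-type hearts ranged over 0.60 to 0.85 for Scube2 and 0.34 to 0.44 for Ppa2. The ranges were -0.59 to -0.39 for Ttc17 and -0.52 to -0.34 for Pnpla7. Scube2 had 17.7, 25.7 and 25.5 CPM in homozygous, 14.5, 13.2 and 13.1 in heterozygous and 13.9, 13.6 and 15.4 in wild-type libraries, a log2 fold change of 0.68 between homozygous and wild-type hearts (edgeR, adjusted p = 0.0204). Ppa2 was higher, at 124 ± 8.50 CPM in homozygous and 94.9 ± 2.09 in wild-type hearts (log2 fold change 0.38, adjusted p = 0.0291). Ttc17 was lower, at 20.1 ± 2.83 and 28.1 ± 2.56 CPM in homozygous and wild-type hearts (-0.48, adjusted p = 0.0446), and so was Pnpla7, at 18.1 ± 2.47 and 24.9 ± 1.49 CPM (-0.45, adjusted p = 0.0389). Arhgap10, Gk and Ank3 had log2 fold changes of 0.14, -0.17 and 0.05, which did not pass the test (adjusted p = 0.302, 0.511 and 0.902). The cardiomyocyte marker sum was higher in every homozygous than in every wild-type library, as given above, but not every gene of that list was. The part of the sum in these expression changes was not tested.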

How the data were processed

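RNA from hearts of 9 mouse libraries was sequenced in pairs of reads from a stranded kit, per the labels' protocols. The authors deposited inclusion and exclusion read counts and PSI as a fraction for each exonic part on GRCm39, with the part length in bases. Each deposited PSI equals inclusion reads over part length plus 148 bases, divided by that value plus exclusion reads over 148 bases, with a largest gap of 5.0e-07. Cutadapt 1.8 and Salmon 1.2.1 are named without a role, per the submitters' processing notes, and the counter of parts and its use of strand are not given in the sources used here.

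Groups were taken from the sample titles. Tested parts had a PSI and 10 or more reads in all 9 libraries, and reached 0.05 or more in some library and 0.95 or less in some library, which left 55648 parts of 10688 gene identifiers. PSI was fitted with limma 3.58.1 (variance trend, 6 residual degrees of freedom). Counts summed per gene, in which a read that spans several parts may count in each, went into quasi-likelihood tests of edgeR 4.0.16 after filterByExpr and TMM scaling (22049 genes, with calls at an adjusted p under 0.05). CPM are these counts scaled to library size. Inclusion counts summed to 297 to 323 M per library and exclusion counts to 52.6 to 62.3 M. The scripts were tested on simulated data. Intervals cover 95% and come from limma.

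The named exons were all called exons, the uncalled ones with the smallest p up to 20 in all, and those at the edges of the rule. Each RBM20 target gene added 1 exon, that with its smallest p in homozygous against wild-type hearts. Other genes are examples from the lists, chosen with their values in view. A few genes are not reported here. The exons and lists were chosen with earlier results of these data known. Alternatives were a logit scale with 0.01 added, a test on reads with edgeR, 20 reads, PSI differences of 0.05 and 0.2, no filter on constant parts, the 2 groups alone, no variance trend, replicate and library number terms, leaving out Ttn or each library, other mean PSI bounds, DESeq2 1.42.0, no low-count filter and constitutive parts only. The software was matplotlib 3.10.9, numpy 2.4.6, pandas 2.3.3, Python 3.11.15 and R 4.3.3.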

Additional observations from a re-analysis of the deposited data

How the results depend on the processing

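The 9 calls between homozygous and wild-type hearts became 17 without the variance trend and 6 to 17 when a library was left out, the 17 without homozygous library 2, of which 7 are among the 9 and 5 are Lsr exons. The other alternatives gave 6 to 12. Leaving out the Ttn parts gave 6, as did the library number term, and both lost Gk part 25, Scube2 part 9 and Ttc17 part 10. Ank3 parts 116, 117 and 118 and Arhgap10 part 12 were called under all 23 alternatives run for them. Between heterozygous and wild-type hearts the 1 call became 2 on the logit scale, 2 by the edgeR test on reads, 2 without the variance trend, 6 with only library numbers below 11000 (an alternative chosen after seeing the data, with a single wild-type library assumed to vary like the others), and 0 at a PSI difference of 0.2, with the 2 groups alone and with a mean PSI of 0.1 to 0.9. Leaving out a library gave 0 to 2. Between homozygous and heterozygous hearts the 4 calls became 0 with only library numbers below 11000 and 3 to 9 when a library was left out.

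Replicate numbers that groups share were not taken to pair the libraries: same-numbered libraries had correlations of their deviations between -0.0093 and 0.0365 over all tested parts and between -0.023 and 0.128 over the frame-keeping exons, where 1 of 9 pairs was over 0.1. With the replicate block, calls were 8 between homozygous and wild-type hearts, 0 between heterozygous and wild-type hearts, and 4 between homozygous and heterozygous hearts, and genes called for expression were 281.

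The 120 genes called for expression became 277 with DESeq2, 271 without the low-count filter, 26 with the library number term and 28 to 159 when a library was left out. Between heterozygous and wild-type hearts the count of 0 became 1 with DESeq2 and 4 without the low-count filter. Uncalled values turned sign as follows, and the cause was not tested. With the library number term the PSI differences between homozygous and wild-type hearts were -0.0353 for Pdlim3, 0.00248 for Ktn1 and -0.00435 for Cacna1c, and the log2 fold change of Ank3 expression in heterozygous against wild-type hearts was 0.016. With only library numbers below 11000 the PSI differences were -0.0177 for Pdlim3, 0.00567 for Ktn1, 0.0293 for Pdlim5 and 0.0456 for Spen. When a library was left out, Cacna1c ranged over -0.00335 to 0.0321, below 0 without homozygous library 1. The log2 fold change of Ank3 expression between homozygous and wild-type hearts was -0.038 with constitutive parts and ranged over -0.058 to 0.21 when a library was left out, below 0 without homozygous library 1, wild-type library 1 or wild-type library 2. Between heterozygous and wild-type hearts it ranged over -0.21 to 0.097, above 0 without heterozygous library 2 or wild-type library 3, and that of Gk over -0.22 to 0.0064, above 0 without heterozygous library 2. Of the 308 exons with fewer than 20 reads in a library, 0 were called by limma, with 35 at an unadjusted p under 0.05.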
